A study of Mus musculus with 6 samples.

Results

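Skeletal muscle genes were followed in the skin of C3H/HeJ mice, an inbred strain in which alopecia areata, an autoimmune hair loss, can arise. The genes are 10 that distinguish or build the contractile apparatus of fast and slow muscle fibres, out of 18193 genes measured, and they are read by 14 of the 45037 probe sets other than controls. They were taken as all probe sets whose only gene symbol in the platform annotation is Acta1, Ckm, Myh1, Myh2, Myh4, Tnnt3, Tnnc2, Pvalb, Tnnt1 or Tnnc1. One group held 3 mice with the phenotype alopecia areata, whose RNA came from affected, alopecic skin, and the other held 3 mice with unaffected skin. All mice were C3H/HeJ and no treatment is named. Each mouse gave total RNA for 1 array. The labels name neither age nor body site, so groups and single mice may differ in either.

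Striated muscle contracts when calcium binds troponin C and the troponin complex frees actin for myosin. Fast and slow fibres carry different versions of these proteins: fast fibres use the myosin heavy chains encoded by Myh4, Myh1 and Myh2 and the troponin genes Tnnt3 and Tnnc2, whereas slow fibres use the troponin genes Tnnt1 and Tnnc1 and the myosin Myh7. In mice a thin sheet of striated muscle, the panniculus carnosus, lies beneath the dermis and its fat, while the small muscles that raise hairs are smooth muscle. In such bulk samples, fewer fibres and less RNA per fibre cannot be told apart.

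Values are log2 RMA values, on which a difference of 1 is a doubling. The deposited values ran from 3.07 to 14.92 and array medians from 6.11 to 6.17. The array of unaffected replicate 3 stood apart from the others: the mean over 9 genes of the hair shaft and sheath was 5.74 there and between 12.03 and 13.93 on the other 5 arrays. Its values are therefore given separately for the 10 genes and for some genes of the lists. The group differences of the 10 genes and the medians of the muscle lists are also given without it. Differences of single genes from the lists include it.

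None of the 10 muscle genes passed the test for a difference between alopecic and unaffected skin, while single mice of one group lay far apart. All 10 had their highest value in unaffected replicate 3, and 8 had their lowest in unaffected replicate 2, so both extremes lay inside the unaffected group. The exceptions were Tnnc1, lowest in alopecic replicate 3, and Myh1, lowest in alopecic replicate 2. Over all 18193 genes, 29.1% were highest in unaffected replicate 3 and 16.9% were lowest in unaffected replicate 2. Alopecic replicate 1 was second highest for 9 of the 10 genes; for Myh4 that place went to alopecic replicate 2.

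The genes used by both fibre types come first. Acta1 encodes skeletal muscle alpha-actin, the thin filament protein, and its log2 values were 14.58, 14.17 and 13.81 in alopecic replicates 1 to 3 and 14.49, 12.95 and 14.81 in unaffected replicates 1 to 3. The alopecic values lay within the unaffected range. The means were 14.19 ± 0.38 and 14.08 ± 0.99 (SD, n = 3 each), a difference of 0.10 (SE 0.52, limma adjusted p = 0.975). Ckm, the muscle creatine kinase that regenerates ATP during contraction, had values of 13.76, 13.47 and 12.59 in alopecic and 11.14 to 14.67 in unaffected skin, where replicate 1 stood at 13.49. The groups overlapped, with a difference of 0.17 (SE 0.91, limma adjusted p = 0.975). Between unaffected replicates 3 and 2 alone, the log2 difference was 1.86 for Acta1 and 3.53 for Ckm, which are ratios of 3.63 and 11.5 on the RMA scale.

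The fast myosin heavy chains differed in how far they varied. Myh4, the heavy chain of the fastest (type 2B) fibres, stood at 14.26, 14.30 and 13.77 in alopecic and at 13.88, 12.93 and 14.92 in unaffected replicates. The last of these was the highest value of any gene on any array, so Myh4 was read at the top of the measured scale. Myh1, the type 2X heavy chain, stood at 14.04, 12.46 and 12.72 in alopecic and at 13.59, 12.56 and 14.23 in unaffected replicates. Myh2, the type 2A heavy chain of fast oxidative fibres, stood at 12.39, 10.49 and 10.41 in alopecic and at 12.28, 8.88 and 14.15 in unaffected replicates. Its range over the 6 arrays was 5.28 log2 units, against 1.99 for Myh4 and 1.77 for Myh1. Alopecic minus unaffected, the differences were 0.20 (SE 0.51) for Myh4, -0.39 (SE 0.58) for Myh1 and -0.67 (SE 1.39) for Myh2. Their limma adjusted p-values were 0.9503, 0.916 and 0.939. These heavy chains are close paralogs, and whether a probe set of one also reads another was not tested.

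The fast troponins and parvalbumin were likewise highest in unaffected replicate 3 and lowest in unaffected replicate 2. Tnnt3, fast troponin T, which ties the troponin complex to tropomyosin, stood at 13.77, 13.13 and 12.18 in alopecic and at 13.37, 10.59 and 14.58 in unaffected replicates, a difference of 0.18 (SE 1.06, limma adjusted p = 0.977). Tnnc2, fast troponin C, the calcium sensor, stood at 14.40, 13.97 and 13.54 in alopecic and at 14.25, 12.36 and 14.83 in unaffected replicates. Its difference was 0.15 (SE 0.66, limma adjusted p = 0.971). Pvalb encodes parvalbumin, a calcium buffer that speeds relaxation of fast fibres. It stood at 13.73, 13.18 and 12.10 in alopecic and at 13.11, 10.99 and 14.46 in unaffected replicates, a difference of 0.15 (SE 0.93, limma adjusted p = 0.979). For each of these 3 genes the alopecic values fell between the lowest and the highest unaffected value.

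The 2 slow fibre genes had wider ranges than the 6 fast ones. In the longer lists of related genes the median range was 3.17 for 12 other slow genes and 3.96 for 12 other fast genes. The slow list was mixed. Myh7, Myl2, Csrp3 and Myoz2 had ranges of 8.001, 7.82, 5.72 and 5.69, each above the widest of the 12 other fast genes (Casq1, 5.62). Mybpc1, Myl3 and Tnni1 had ranges between 3.096 and 4.653. Atp2a2, Casq2, Myh7b, Myl6b and Tpm3 had ranges between 0.704 and 1.201. Tnnt1, slow troponin T, had log2 values of 9.63, 8.24 and 5.95 in alopecic and 7.49, 5.41 and 12.10 in unaffected replicates, a range of 6.68. Tnnc1, the troponin C of slow and cardiac muscle, had values of 9.03, 6.63 and 5.98 in alopecic and 6.44, 6.30 and 11.71 in unaffected replicates. Tnnc1 was therefore near the array median on 4 arrays and clearly above it on alopecic replicate 1 and unaffected replicate 3. Between unaffected replicates 3 and 2 Tnnt1 differed 103-fold and Tnnc1 42.6-fold on the RMA scale, and since the lower values are dim, these ratios are not exact. The differences between groups were -0.39 (SE 1.87, limma adjusted p = 0.974) for Tnnt1 and -0.93 (SE 1.67, limma adjusted p = 0.931) for Tnnc1.

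**Figure D1:**
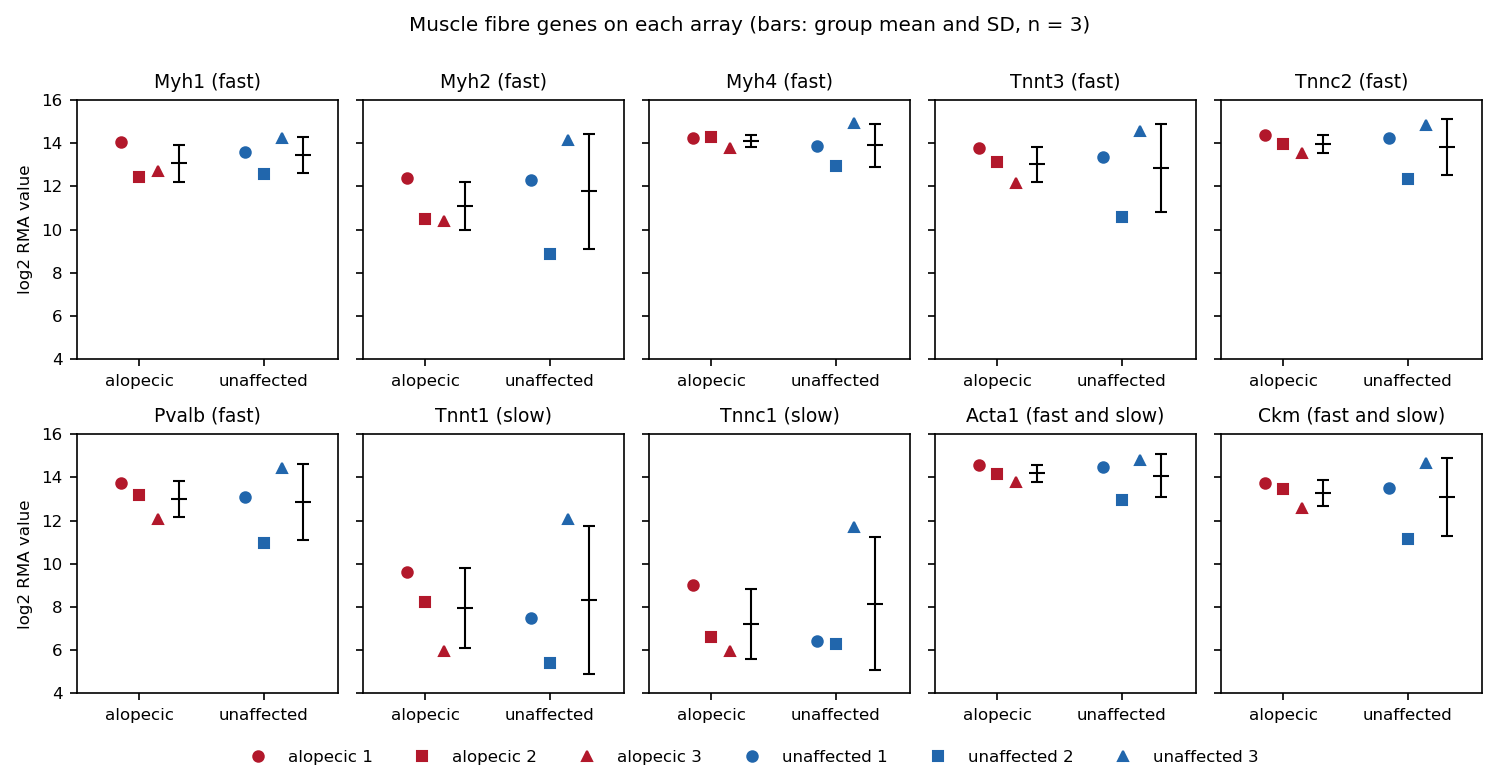
Log2 RMA values (vertical axis) of the 10 muscle genes on each array, by group, 1 panel per gene; marker shapes stand for replicates and bars for the group mean and SD (n = 3). In every panel unaffected replicate 3 is the highest point, and Tnnt1 and Tnnc1 reach furthest down, to 5.41 and 5.98.

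To compare fibre types without setting the levels of different probe sets against each other, each gene was expressed as its deviation from its own mean over the 6 arrays, and deviations were averaged over the 6 fast genes and over the 2 slow genes. The fast average was -1.69 in unaffected replicate 2, -0.63 in alopecic replicate 3, -0.16 in alopecic replicate 2, 0.34 in unaffected replicate 1, 0.69 in alopecic replicate 1 and 1.45 in unaffected replicate 3. The slow average was -2.05, -1.94, -0.48, -0.95, 1.42 and 3.99 on the same arrays. Both averages thus had the same lowest and the same 2 highest arrays, but they exchanged places in the middle. Unaffected replicate 1 and alopecic replicate 1 differed by 0.35 in the fast average and by 2.37 in the slow one. From unaffected replicate 1 to unaffected replicate 3 the fast average was 1.12 higher and the slow average 4.94 higher.

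The difference of fast minus slow deviation was 0.30 ± 1.02 in alopecic and -0.30 ± 1.995 in unaffected mice (SD over 3 mice). The lowest value, -2.54, belonged to unaffected replicate 3 and the highest, 1.31, to alopecic replicate 3, with unaffected replicate 1 at 1.28. The groups overlapped. The group difference of 0.60 turned to -0.52 without unaffected replicate 3, and no p-value is given for this average because the genes were chosen with results of these data known.

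**Figure D2:**
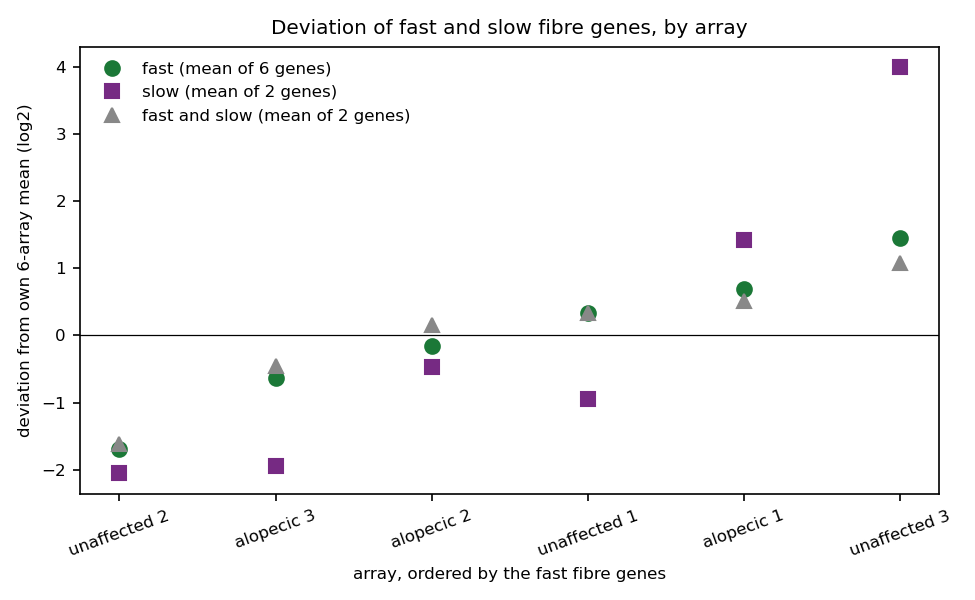
Mean deviation (vertical axis, log2 units) of the fast, slow and shared fibre genes from their own 6-array means, with arrays ordered by the fast average. Slow genes reach 3.99 in unaffected replicate 3 and 1.42 in alopecic replicate 1 and lie below 0 on the other 4 arrays.

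Signals at the top of the scale can differ less than the RNA does, and the bright genes could be read against dimmer probe sets of the same gene. In unaffected replicate 3, 8 of the 10 genes had values above 14, as had 49 genes in all on that array. Ckm had a dimmer probe set with values of 8.91, 8.22 and 6.98 in alopecic and 8.22, 6.43 and 11.29 in unaffected replicates. Its range was 4.86, against 3.53 for the brighter one. Myh4 likewise had a dimmer probe set with a range of 2.59, against 1.99. The wider range of the slow genes therefore cannot be read as a ratio to that of the fast genes. Myh1 had a probe set of nearly the same values as the main one (range 2.03) and another between 4.06 and 4.96, below every array median, which did not follow the others in putting unaffected replicate 3 highest. The other 13 of the 14 probe sets did.

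**Figure D3:**
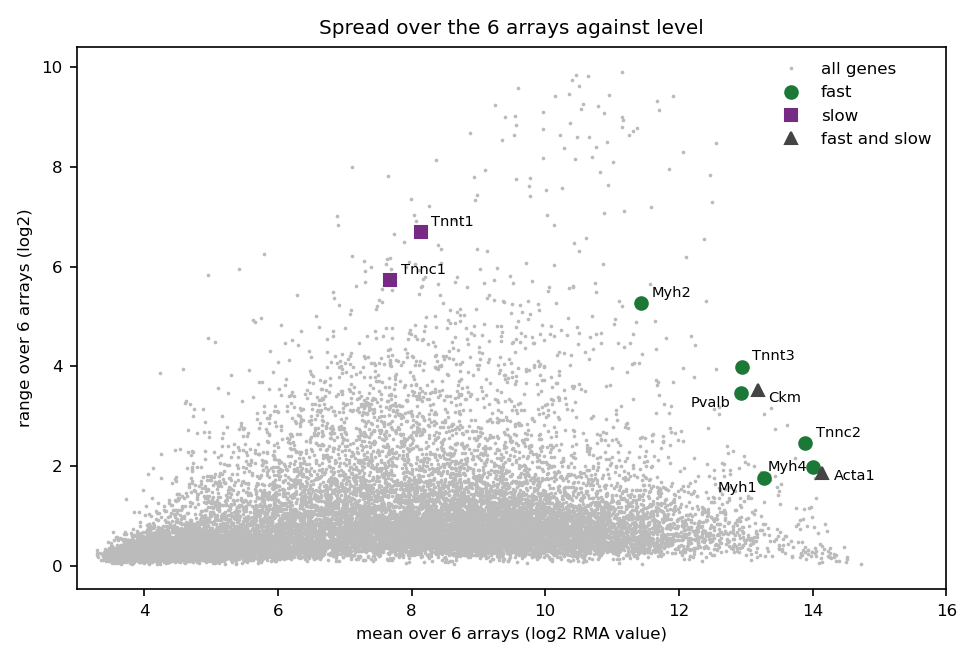
Range over the 6 arrays (vertical axis, log2 units) against the mean over the 6 arrays (horizontal axis, log2 RMA value) for all 18193 genes in grey and the 10 muscle genes in colour. Myh2, Tnnt1 and Tnnc1 have ranges of 5.28, 6.68 and 5.72, against a median of 0.65 over all genes, and the muscle genes at the top of the scale have smaller ranges.

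The genes tended to be high and low on the same arrays, though by unequal amounts. The Pearson correlation over the 6 arrays had a median of 0.92 over the 45 pairs of genes (lowest 0.65), and a median of 0.88 (lowest 0.41) over the 5 arrays without unaffected replicate 3. With unaffected replicates 2 and 3 both left out, the median was 0.81 and the lowest 0.11. The points share the array and its normalization, and these correlations are a description.

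Promoters are shown for 1 gene used by both fibre types, 2 fast myosins and 1 slow gene, and each window shown holds a CATTCC match. Each sequence is the 250 bases before the transcription start in RefSeq (GRCm38.p6), read 5′ to 3′ on the gene's strand; windows were found for 9 of the 10 genes, all but Tnnt3. Capitals mark matches on either strand to a CArG box (the motif of serum response factor), a MEF2 motif (that of the MEF2 factors), CATTCC (the core bound by TEAD factors) and TATAAA. The windows lie at chr8:123894776-123895025 (minus strand) for Acta1, chr11:67237562-67237811 (plus) for Myh4, chr11:67199852-67200101 (plus) for Myh1 and chr14:31208062-31208311 (plus) for Tnnc1.
Acta1: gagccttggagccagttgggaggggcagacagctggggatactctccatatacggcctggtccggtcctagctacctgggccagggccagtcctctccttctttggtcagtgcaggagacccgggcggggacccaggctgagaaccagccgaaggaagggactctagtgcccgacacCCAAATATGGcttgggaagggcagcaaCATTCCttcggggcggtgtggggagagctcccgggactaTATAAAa
Myh4: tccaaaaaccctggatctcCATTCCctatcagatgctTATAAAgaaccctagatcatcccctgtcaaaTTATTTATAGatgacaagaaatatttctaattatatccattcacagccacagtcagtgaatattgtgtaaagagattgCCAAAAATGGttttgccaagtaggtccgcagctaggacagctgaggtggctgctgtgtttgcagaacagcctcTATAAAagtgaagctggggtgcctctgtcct
Myh1: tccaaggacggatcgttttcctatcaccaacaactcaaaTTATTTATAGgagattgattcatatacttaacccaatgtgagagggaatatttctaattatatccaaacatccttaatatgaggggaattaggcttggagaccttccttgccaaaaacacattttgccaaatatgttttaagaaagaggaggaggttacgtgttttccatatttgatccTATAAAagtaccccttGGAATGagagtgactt
Tnnc1: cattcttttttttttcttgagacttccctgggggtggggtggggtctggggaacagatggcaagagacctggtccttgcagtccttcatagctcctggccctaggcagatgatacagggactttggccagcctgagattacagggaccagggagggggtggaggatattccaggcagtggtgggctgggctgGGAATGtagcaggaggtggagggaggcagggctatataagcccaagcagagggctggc
A CArG box was found in the windows of Acta1 and Myh4, and in 1.47% of all 32851 windows of the table. The MEF2 motif matched in Myh1, Myh4 and Pvalb and in 2.92% of all windows; in Myh1 and Myh4 the matched letters are the same, TTATTTATAG, and they include TATAAA read on the other strand. CATTCC matched in Acta1, Myh1, Myh4 and Tnnc1 (12.6% of all windows), TATAAA in Acta1, Myh1, Myh4 and Tnnt1 (12.4%), and the myogenic E-box CAGCTG, not capitalised, in Acta1, Ckm and Myh4 (13.0%). The windows of Ckm, Myh2 and Tnnc2, which are not shown, held none of the motifs marked in capitals. A match is a description of the letters, not a site in use. Whether any match bears on the shared order of the arrays was not tested.

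The comparison of groups asked whether muscle genes differ in alopecic skin. No gene of the 10 passed the limma test over all genes at an adjusted p of 0.05, in either direction, where 0.275% of all genes did (48 genes or 0.264% higher, 2 genes or 0.011% lower). At an unadjusted p under 0.05 the count was also 0 of 10, against 7.15% of all genes, and the groups overlapped for all 10, where they did not for 13.1% of all genes. Of the 14 probe sets tested one by one, 0 passed (limma, adjusted over 45037 probe sets, of which 0.142% passed), and 0 had an unadjusted p under 0.05. The log2 differences of the genes ran from -0.93 for Tnnc1 to 0.20 for Myh4, 6 of them positive and 4 negative, with a median of 0.12 beside -0.01 over all genes tested. The median was 0.15 for the 6 fast genes, -0.66 for the 2 slow genes and 0.14 for the 2 shared ones.

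These data do not show that the groups are alike, since the intervals are wide. The 95% interval of the difference ran from -1.05 to 1.45 for Myh4 and from -1.18 to 1.38 for Acta1. For Tnnt1 it ran from -4.999 to 4.22. The sign followed single arrays: without unaffected replicate 3 all 10 differences were positive, from 0.00087 for Myh1 to 1.49 for Tnnt1, and without unaffected replicate 2 all 10 were negative, from -2.12 for Myh2 to -0.29 for Myh4. Leaving out alopecic replicate 1 made 9 of the 10 negative. In none of the 6 fits with 1 array left out did a gene of the 10 pass (smallest limma adjusted p = 0.569, for Myh4 without unaffected replicate 3).

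**Figure D4:**
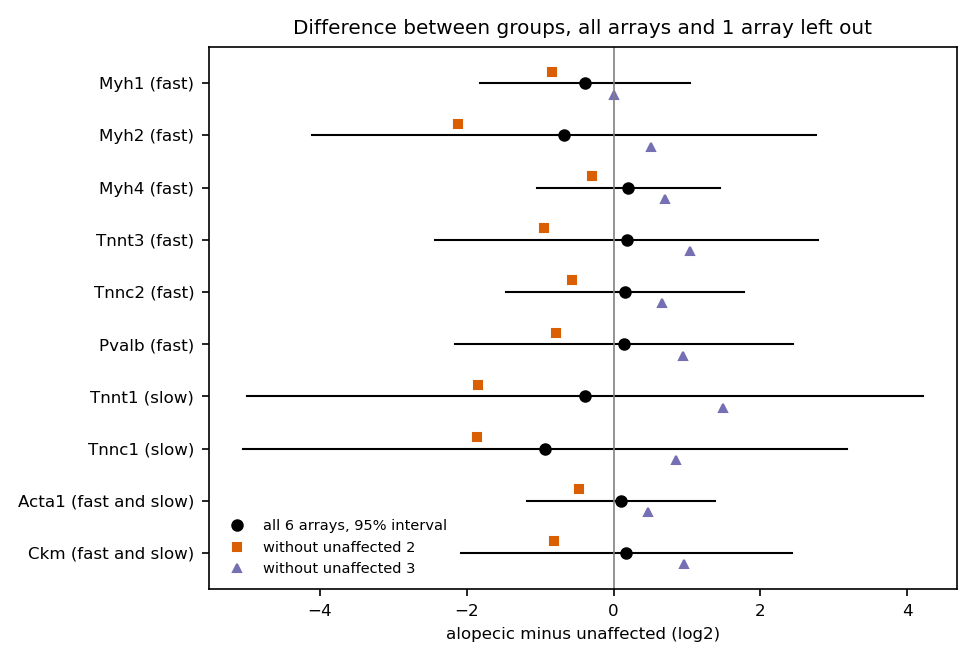
Alopecic minus unaffected log2 difference (horizontal axis) of each muscle gene, with its 95% interval from all 6 arrays in black, and the value without unaffected replicate 2 (squares) or 3 (triangles). Every interval spans 0, squares lie left of 0 and triangles lie right of it, Myh1 at 0.00087.

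Further muscle genes were taken from lists of related genes. Of 12 other fast fibre genes 0 passed the test (median log2 difference -0.03), and all 12 were highest in unaffected replicate 3. Mylpf and Myl1, the regulatory and essential light chains of fast myosin, differed by 0.29 (SE 0.85) and 0.28 (SE 0.76). Pygm, the glycogen phosphorylase of muscle, differed by -0.45 (SE 1.26) and Gpd1, glycerol-3-phosphate dehydrogenase, by -0.77 (SE 0.61). Of 24 measured genes of the sarcomere, its membranes and its mitochondria, 0 passed (median -0.46). All 24 were highest in unaffected replicate 3 and lowest in unaffected replicate 2. Ttn, the giant spring protein titin, had values of 13.41, 12.49 and 11.47 in alopecic and 12.88, 11.07 and 14.25 in unaffected replicates. Mb, the oxygen store myoglobin, differed by -0.21 (SE 1.24). The cytochrome oxidase subunit Cox7a1 differed by -1.20 (SE 1.21) and Mylk2, the skeletal myosin light chain kinase, by -1.13 (SE 1.24). In unaffected replicate 3 Cox7a1 stood at 12.36 and Mylk2 at 11.83, against at most 9.91 and 8.21 on the other arrays.

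The other slow fibre genes did not share one order of arrays. Of 12 measured, 0 passed the test (median -0.47), and 8 were highest in unaffected replicate 3. Myh7, the slow myosin heavy chain, had values of 9.17, 5.93 and 4.77 in alopecic and 5.004, 5.05 and 12.77 in unaffected replicates, a range of 8.001. Only alopecic replicate 1 and unaffected replicate 3 lay above the array median, the same 2 arrays in which Tnnt1 and Tnnc1 had their highest values. Myl2, the slow regulatory light chain, stood at 10.53 and 12.74 on those arrays and between 4.92 and 6.25 on the other 4. Tnni1, slow troponin I, stood at 8.38 and 9.83 on those arrays and between 6.74 and 7.38 on the other 4. Some other members of the list did not single out those 2 arrays. Unaffected replicate 1 stood at 12.04 for Csrp3, a Z-disc protein, and at 12.19 for Mybpc1, slow myosin-binding protein C. For Myoz2, a Z-disc protein of slow fibres, it stood at 9.35. Alopecic replicate 1 stood at 11.74, 12.19 and 9.82 for these 3 genes. Casq2, the calcium store protein of slow and cardiac muscle, lay between 7.14 and 8.14, with 7.64 in unaffected replicate 3. Myl2, Tnni1, Csrp3, Mybpc1, Myoz2 and Casq2 were chosen after their values were seen. Myl3, the slow essential light chain, was 9.17 in unaffected replicate 3, 6.68 in alopecic replicate 1 and between 5.92 and 6.17 on the other 4 arrays. Atp2a2, the calcium pump of slow fibres, and Tpm3, their tropomyosin, are also made by many non-muscle cells, and both were lowest in unaffected replicate 3, at 11.39 and 11.16. Tpm3 differed by 0.60 (SE 0.23, limma adjusted p = 0.656), with each alopecic value above each unaffected one.

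The medians of these 3 lists of adult muscle genes also followed single unaffected arrays. Without unaffected replicate 3 they were 0.88 for the other fast genes, 0.63 for the sarcomere list and 0.26 for the other slow genes, and without unaffected replicate 2 they were -1.11, -1.66 and -1.33. No gene of the 3 lists passed in either of these fits.

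Regulators of muscle formation, immature isoforms and denervation genes did not pass either. Of 11 measured myogenic regulators 0 passed (median -0.26, and -0.0036 without unaffected replicate 3), with Myf6, the regulator of mature fibres, at -0.62 (SE 1.05), Myod1, which commits cells to the muscle lineage, at -0.40 (SE 0.36), Mef2c at -0.36 (SE 1.01) and Mef2a at -0.38 (SE 0.34). Myf6 reached 10.22 in unaffected replicate 3 and was 6.004 in unaffected replicate 2. Among 9 developmental and cardiac isoforms 0 passed (median -0.04, and 0.12 without unaffected replicate 3). Actc1, cardiac alpha-actin, stood at 9.15, 6.95 and 5.25 in alopecic and at 6.37, 5.37 and 5.81 in unaffected replicates, so that unaffected replicate 3 was not high. Tnnt2, cardiac troponin T, differed by -0.97 (SE 0.52). Of 12 genes of denervation and atrophy 0 passed (median 0.01, and 0.17 without unaffected replicate 3). The ubiquitin ligases of muscle atrophy Trim63 and Fbxo32 differed by -0.91 (SE 0.90) and -0.64 (SE 0.69), and Runx1, a transcription factor induced in denervated muscle and also made by hair follicle and blood cells, by 0.84 (SE 0.31, limma adjusted p = 0.642). In the list of muscle metabolism and calcium handling 0 of 12 passed (median -0.65, and 0.19 without unaffected replicate 3), with all 12 highest in that array. Pdk4, which restrains pyruvate oxidation, differed by -1.79 (SE 1.30) and the fatty acid carrier Fabp3 by -1.07 (SE 1.31). In unaffected replicate 3 they stood at 12.73 and 12.89, against at most 10.89 and 10.40 on the other arrays. The glycolytic enzyme Aldoa differed by -0.13 (SE 0.36) and lipoprotein lipase, Lpl, by -0.74 (SE 0.22, limma adjusted p = 0.529).

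The genes most like the fast average were sought among 3360 other genes with a range of at least 1 and a mean of at least the median gene mean of 7.61. The 8 with the highest Pearson correlation over the 6 arrays were Sdhd, a subunit of mitochondrial succinate dehydrogenase, the muscle genes Casq1, Pdlim3, Klhl41 and Myoz1, the tropomyosin Tpm1, the muscle enolase Eno3 and Neb, which encodes nebulin (r from 0.993 to 0.998, and from 0.990 to 0.998 without unaffected replicate 3). Casq1, the calcium store protein of fast fibres, was not at the top of the scale and stood at 11.55, 10.13 and 9.51 in alopecic and 10.84, 7.42 and 13.05 in unaffected replicates. The 8 most like the slow average were Arhgef6, Ppp2r3a, Atcayos, Ppip5k1, Zfp652, Slc37a4, Ube2d1 and Art3. Their r ran from 0.985 to 0.998, and from 0.952 to 0.999 without unaffected replicate 3. Slow fibre genes with means below the cut-off, Myh7 and Myl3 among them, were not part of this search. Myl2, Tnni1, Myoz2, Csrp3 and Mybpc1 met both cut-offs and were searched, and none of them was among these 8. Of the 3360 genes, 101 exceeded 0.95 for the fast and 102 for the slow average. Over 6 arrays these correlations are a description, and what the genes share was not tested. Ranges among the slow-like genes were between 1.16 and 2.59, below those of Tnnt1 and Tnnc1.

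Of the other tissues of skin, some ran against the muscle genes and some shared their highest array. The mean over 8 adipocyte genes was highest in unaffected replicate 2, at 9.78, where the fast muscle genes were lowest, and lowest in unaffected replicate 3, at 7.51, where they were highest. Between those, it was 9.34 in unaffected replicate 1 and 8.66, 8.88 and 8.06 in alopecic replicates 1 to 3. Adipoq, the adipocyte hormone adiponectin, stood at 12.44 in unaffected replicate 2 and 8.29 in unaffected replicate 3, and Fabp4 at 13.92 and 13.11. Of the 8 adipocyte genes, 6 were lowest in unaffected replicate 3. Fabp4 was not, with its lowest value, 12.63, in alopecic replicate 3. All 9 hair shaft and sheath genes were lowest in unaffected replicate 3; Krt25 stood there at 5.77 and between 13.63 and 14.24 on the other arrays, and Prr9 at 7.10 and between 12.75 and 14.40. Smooth muscle had a list mean between 8.50 and 9.16 in alopecic and between 8.43 and 9.01 in unaffected skin, with 8 of 11 genes lowest in unaffected replicate 3. Acta2, smooth muscle actin, was 9.61 there and at least 11.67 elsewhere, whereas desmin, Des, which striated muscle also makes, was highest there at 13.39. Synpo2 and Lmod1 were also highest there, at 12.63 and 8.67, so the list mean averages genes that ran in opposite directions.

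List means in alopecic and unaffected skin ran from 10.84 to 11.86 and from 10.78 to 11.96 for 8 fibroblast genes (Col1a2 and Dcn among them), and from 12.36 to 13.30 and from 12.14 to 13.02 for 7 keratinocyte genes (Krt10 and Krt14 among them). For 7 endothelial genes (Cldn5 and Kdr among them) they ran from 6.70 to 7.55 and from 7.07 to 7.90, and for 5 Schwann cell genes (Egr2 and Pmp22 among them) from 8.78 to 9.03 and from 8.98 to 9.82. The list mean of the 6 T cell genes measured (Cd3g and Zap70 among them) was between 7.99 and 8.71 in alopecic and between 7.25 and 7.38 in unaffected skin. Cd3e, Cd3d, Cd3g and Cd8a were higher in each alopecic than in each unaffected replicate. Zap70 overlapped between the groups, and Cd4 was lower in each alopecic replicate (6.05 to 6.13 against 6.15 to 6.43). None of the 6 passed the test. The endothelial and Schwann cell lists, like the muscle genes, had their highest mean in unaffected replicate 3. That was the highest array for 5 of 7 and 4 of 5 of their genes, against 29.1% of all genes. The Schwann cell genes were unequal: Mbp stood at 12.44 there and between 8.54 and 9.19 elsewhere. Sox10 and S100b, at 7.77 and 6.87 there, were close behind in alopecic replicate 3, at 7.68 and 6.78. Egr2 was lowest in unaffected replicate 3, at 10.21. The endothelial list was lowest in alopecic replicate 3 and next lowest in unaffected replicate 2. No marker list was at 0, which RMA values do not reach, and the part of these tissues in the muscle values was not tested.

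**Figure D5:**
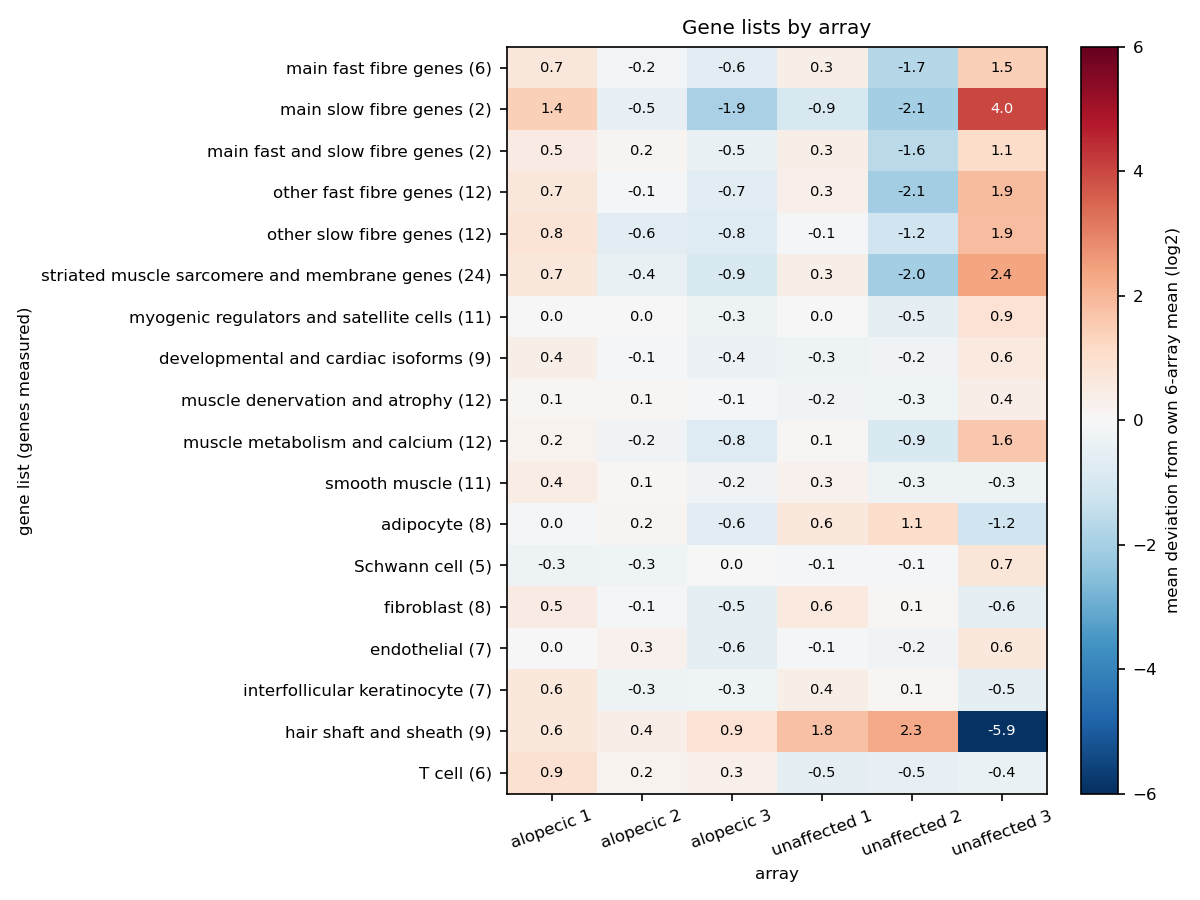
Mean deviation (colour and printed value, log2 units) of each gene list from its own 6-array means, on each array; the number of genes measured stands beside each list. Lists of striated muscle are highest in unaffected replicate 3, where the hair shaft and sheath list is at -5.91 and the adipocyte list at -1.19.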

How the data were processed

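Per the labels' protocols, a 3' IVT kit made biotin-labelled copies of total RNA from the skin of 6 mice, 1 array per mouse. The deposited values are log2 values summarised by probe set with RMA, per the submitters' processing notes; RMA normalizes between arrays and compresses differences near background. No label or file header names its version or a genome build. Arrays have no read depth, and 3 per group limit the precision.

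Symbols came from the platform annotation, updated through RefSeq gene identifiers (GRCm38.p6) for 34741 of 34945 probe sets with 1 symbol. The probe set with the highest mean represented each of 18193 genes. Groups were compared with limma 3.58.1 under R 4.3.3 (eBayes after lmFit, two-sided, Benjamini-Hochberg over all genes, threshold 0.05, no filter on dim genes), tested on simulated data. SD is over 3 arrays and SE is that of the fit. The genes and lists were chosen with earlier results of these data known, so lists have counts and medians and no test of their own; 153 of the 166 entries of the further lists were measured.

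Named genes are the 10 muscle genes; of each muscle list those past the threshold, or else the 2 with the largest difference and the 2 with the highest mean; the 2 with the highest mean of each other list; and the 8 most like the fast and the slow average. Some further genes of the lists were named after their values were seen. Alternatives were the mean of all probe sets, each probe set, a filter at the median gene mean, quantile normalization, a trended robust variance prior, array weights, replicate number as a block, and each array left out. Equal replicate numbers did not pair the mice (correlations of deviations from the group means -0.13, -0.20 and -0.33).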

Additional observations from a re-analysis of the deposited data

How the results depend on the processing

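None of the 10 muscle genes passed under any of the 13 alternatives (smallest limma adjusted p = 0.516, for Myh1 with array weights). The medians over fast, slow and shared genes and the fast minus slow difference shifted by less than the unaffected SD of the matching averages. Their largest shifts exceeded the alopecic SD. Leaving out 1 array put the fast median between -0.81 and 0.68 and the slow median between -1.86 and 1.17. The shared median then lay between -0.64 and 0.71, and fast minus slow between -0.52 and 1.39. The medians changed sign with arrays of either group. Without alopecic replicate 1 the fast and shared medians were -0.20 and -0.082, and without alopecic replicate 3 the slow median was 0.14. Array weights turned the fast and shared medians to -0.10 and -0.072, and the mean of all probe sets turned the shared one to -0.059. Of the signs of single genes, array weights turned Acta1 to -0.13, Ckm to -0.011, Pvalb to -0.072, Tnnc2 to -0.067 and Tnnt3 to -0.13, and the mean of all probe sets turned Ckm to -0.22. With 1 array left out, differences ran from -0.47 to 0.46 for Acta1, -0.81 to 0.96 for Ckm, -0.87 to 0.00087 for Myh1, -2.12 to 0.52 for Myh2, -0.29 to 0.71 for Myh4, -0.79 to 0.95 for Pvalb, -1.86 to 0.85 for Tnnc1, -0.57 to 0.66 for Tnnc2, -1.85 to 1.49 for Tnnt1 and -0.95 to 1.05 for Tnnt3. Over all genes, 48 higher and 2 lower became 126 and 13 with array weights. With the replicate block they became 0 and 0 by limma (873 genes at an unadjusted p under 0.05); no mouse correlated best with its own number, and the numbers are not a pairing. Lower genes numbered 1 when each probe set was tested. With 1 array left out there were 4 to 34 higher and 0 to 5 lower genes, with 4 higher without unaffected replicate 2. The causes were not tested. The low values of Tnnt1, Tnnc1 and Myh7 (down to 5.41, 5.98 and 4.77) lie near or below the array medians. RMA compresses differences near background, and how far this affected these values was not tested.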
